A study of Homo sapiens and Mus musculus with 55 samples.

Results

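Tubulin isotypes were followed across 55 RNA-seq libraries of 4 breast cancer cell lines. The members were listed by symbol, with earlier results of these data known. They were the 4 alpha isotypes TUBA1A, TUBA1B, TUBA1C and TUBA4A, and the 6 beta isotypes TUBB, TUBB2A, TUBB2B, TUBB3, TUBB4B and TUBB6. In the mouse lines the title-case orthologs were taken, with Tubb5 for TUBB. All 10 had a row in each of the 10 tables, out of 24465 to 36036 genes per table. All 10 also passed the filter on low values, a table mean of at least 10, in the 8 human tables, and 9 passed it in each of the 2 mouse tables, where Tubb3 did not.

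The libraries form 25 groups in 10 comparisons. MDA-MB-436 and SUM159PT are established human lines of triple-negative breast cancer. The mouse lines, 4T1 and Py230, derive from mammary tumours. In each human line, cells labelled Tax-R were set against parental (Par) cells. Tax-R cells of each human line carried MYC siRNA (siMYC1 or siMYC2) or control siRNA (siC). Each human line also had cells with a STING sgRNA (sgSTING C1 or C2), set against mock-treated parental cells, and sgSTING cells with a STING ORF, set against sgSTING cells with a GFP ORF, so that both ORF groups carry the sgRNA. The 4T1 cells had siMYC1, siMYC2 or siC, and Py230 cells received doxycycline (Dox(+)) or vehicle (Dox(-)), both groups carrying an shRNA to Sting1. Groups had 2 libraries in the human lines and 3 in the mouse lines. Nothing says that the libraries of a group come from different cultures, and the p-values therefore measure only the spread among these libraries, which may be technical.

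Microtubules are polymers of alpha and beta tubulin heterodimers, and beta tubulin is the subunit that taxanes bind. Vertebrates encode several isotypes of each subunit, which are nearly identical in sequence except at the C-terminal tail. TUBA1B, TUBA1C, TUBB and TUBB4B are made in most dividing cells, TUBA1A, TUBB2A, TUBB2B and TUBB3 are best known from neurons, and TUBB6 is a widely expressed, more divergent beta isotype. New tubulin is folded by prefoldin, the chaperonin CCT and a set of tubulin cofactors, and tubulin mRNAs are themselves destabilized when free tubulin is in excess.

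Promoters of 6 members are shown, picked by their RNA changes with MYC siRNA in SUM159PT Tax-R cells. TUBA1B, TUBA1C, TUBB and TUBB4B fell together there, and TUBA1A and TUBB2A were higher in the same libraries. TUBB2B and TUBB3, which were also higher, are not shown. Binding of MYC to these windows was not tested. Each window is from RefSeq on GRCh38.p14, runs 5′ to 3′ on the gene's strand and covers a transcription start, most of it upstream. Capitals mark CACGTG (the E-box bound by MYC with MAX), CCAAT (or ATTGG) and TATAA (or TTATA), searched on both strands. TUBA1C is shown at the start whose window holds CACGTG and TUBB at both of its starts.
TUBA1B, chr12:49131346-49131645, minus strand: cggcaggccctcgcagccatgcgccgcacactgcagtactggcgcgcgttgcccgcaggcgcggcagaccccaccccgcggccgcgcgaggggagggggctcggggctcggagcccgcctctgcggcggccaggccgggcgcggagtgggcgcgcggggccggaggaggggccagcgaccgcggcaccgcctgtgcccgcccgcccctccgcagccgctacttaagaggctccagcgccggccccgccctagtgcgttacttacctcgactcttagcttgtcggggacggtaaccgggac
TUBA1C, chr12:49264832-49265131, plus strand: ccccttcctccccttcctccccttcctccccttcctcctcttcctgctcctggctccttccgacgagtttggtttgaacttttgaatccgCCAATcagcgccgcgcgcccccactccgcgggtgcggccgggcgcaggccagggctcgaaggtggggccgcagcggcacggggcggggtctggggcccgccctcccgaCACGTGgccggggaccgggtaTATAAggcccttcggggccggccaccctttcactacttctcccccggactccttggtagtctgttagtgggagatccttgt
TUBB, chr6:30720102-30720401, plus strand: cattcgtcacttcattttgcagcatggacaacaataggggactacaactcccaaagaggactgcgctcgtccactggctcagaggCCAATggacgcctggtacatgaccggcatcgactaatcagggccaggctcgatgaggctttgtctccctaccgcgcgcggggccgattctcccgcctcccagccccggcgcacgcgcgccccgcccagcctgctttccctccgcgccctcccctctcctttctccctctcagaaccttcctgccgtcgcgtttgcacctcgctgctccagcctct
TUBB, chr6:30721388-30721687, plus strand: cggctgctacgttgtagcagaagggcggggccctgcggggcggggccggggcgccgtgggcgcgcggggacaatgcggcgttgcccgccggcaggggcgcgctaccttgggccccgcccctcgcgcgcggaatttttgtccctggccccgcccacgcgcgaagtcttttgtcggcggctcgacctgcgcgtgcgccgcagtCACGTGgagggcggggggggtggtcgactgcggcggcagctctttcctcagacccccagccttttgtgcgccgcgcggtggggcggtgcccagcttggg
TUBB4B, chr9:137241037-137241336, plus strand: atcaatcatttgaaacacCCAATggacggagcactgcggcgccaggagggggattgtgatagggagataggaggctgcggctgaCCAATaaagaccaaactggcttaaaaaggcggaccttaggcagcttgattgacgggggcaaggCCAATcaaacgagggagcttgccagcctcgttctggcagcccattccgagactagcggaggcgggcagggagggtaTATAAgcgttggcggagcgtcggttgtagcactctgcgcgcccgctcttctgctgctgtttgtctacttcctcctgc
TUBA1A, chr12:49189031-49189330, minus strand: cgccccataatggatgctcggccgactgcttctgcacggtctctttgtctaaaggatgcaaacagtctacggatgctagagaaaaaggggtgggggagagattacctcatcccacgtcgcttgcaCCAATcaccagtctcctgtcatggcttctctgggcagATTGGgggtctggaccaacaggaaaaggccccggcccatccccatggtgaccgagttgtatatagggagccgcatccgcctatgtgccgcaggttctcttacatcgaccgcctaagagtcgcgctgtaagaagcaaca
TUBB2A, chr6:3157495-3157794, minus strand: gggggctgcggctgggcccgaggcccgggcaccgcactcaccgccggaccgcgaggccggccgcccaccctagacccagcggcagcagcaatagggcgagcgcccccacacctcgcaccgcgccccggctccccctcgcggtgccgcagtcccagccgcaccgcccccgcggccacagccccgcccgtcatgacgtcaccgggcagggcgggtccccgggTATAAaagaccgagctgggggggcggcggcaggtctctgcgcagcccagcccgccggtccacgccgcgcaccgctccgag

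Over 15 RefSeq starts of the 10 human members, CACGTG occurred at 2, in TUBB and TUBA1C, against 7.26% of 35116 promoters of all genes. For the members, any start on a single excluded chromosome was left out, which was not done for the promoters of all genes. CCAAT occurred at 9 of the 15 starts, against 34.6% of all promoters, and TATAA at 5, against 20.4%. The TUBB4B window held CCAAT at 3 places, and that of TUBA1B held none of these motifs. A match says only that these letters are in the window.

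Depth was 5663610 to 13191675 reads per library. The labels were checked against their targets, on the log2(normalized count + 1) scale used throughout. STING1, listed as TMEM173, was lower with STING sgRNA (-1.85 in MDA-MB-436 and -1.28 in SUM159PT) and higher with the STING ORF (4.47 and 4.37). In Py230 doxycycline cells Tmem173 was lower (-4.14), and so was Myc (-1.64). MYC was lower by 0.87 in SUM159PT with MYC siRNA, but only by 0.091 in MDA-MB-436 (1897 to 1930.1 with MYC siRNA, against 2058 and 2019 with control siRNA). In 4T1, Myc (2220.3 to 2407 with MYC siRNA, against 2390.0 to 2595 with control siRNA) was not called (-0.093, adjusted p = 0.0683), so the MYC siRNA groups of MDA-MB-436 and 4T1 are named here by their labels. Over the human libraries ESR1 was between 0 and 18.8 normalized counts and the luminal keratin KRT8 between 1270.1 and 8508. The epithelial marker EPCAM was only between 0 and 24.6, and ERBB2 was between 368 and 1190. These levels describe the libraries and do not check the identity of the lines.

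The tables of Tax-R and parental cells stood apart from the other human tables. Their own 8 libraries held 777 to 1086 CPM of TUBA1A (gene reads scaled to a common total), against 46.0 to 349 in the 32 other human libraries. For TUBA1B the order was the other way, with 356 to 559 CPM, against 556 to 1949 CPM. ACTB was at 247 to 272 CPM in these 8 libraries, against 2993 to 4112 in the 32 others. Across genes, the 2 Tax-R tables had a Spearman correlation of 0.977 with each other and of 0.787 (MDA-MB-436) and 0.766 (SUM159PT) with the STING sgRNA table of their own line. The siRNA table of SUM159PT also differed from its own line. It had a correlation of 0.812 with the STING sgRNA table of SUM159PT and of 0.895 with the siRNA table of MDA-MB-436. Each table was normalized separately by the authors, so tests were made only within a table, and CPM set side by side across tables is a description. The cause of these differences between tables was not tested.

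Divided by transcript length, TUBB was the most abundant beta isotype in 17 of the 20 human groups. In mock-treated MDA-MB-436 cells it made up 54.0% ± 0.678 of the beta tubulin level per length (SD, n = 2). TUBB4B followed with 31.3% ± 0.358 and TUBB6 with 10.99% ± 0.323. TUBB2A had 2.74% ± 0.0904, TUBB2B 0.605% ± 0.0317 and TUBB3 0.335% ± 0.0615. The order was the same in mock-treated SUM159PT cells, where TUBB had 53.6% ± 0.193 and TUBB3 0.321% ± 0.0228. Each step of this order was larger than the SDs of its neighbours in both lines. Among the alpha isotypes per length, mock-treated MDA-MB-436 cells had 70.7% ± 0.216 TUBA1B, 21.5% ± 0.141 TUBA1C, 4.45% ± 0.0444 TUBA4A and 3.38% ± 0.0304 TUBA1A. In parental MDA-MB-436 cells of the Tax-R table TUBA1A led instead, with 43.9% ± 0.286, and TUBA1C (26.7% ± 0.231) and TUBA1B (25.9% ± 0.231) were close to each other. That closeness rests on the transcript lengths used, 3001 bases for TUBA1C and 1627 for TUBA1B. By reads alone these parental libraries had 39.5% and 39.1% TUBA1A, 37.3% and 37.7% TUBA1C, and 19.8% and 19.5% TUBA1B.

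The 3 exceptions were the MDA-MB-436 siRNA groups, in which TUBB4B led. There TUBB was 20.9% to 23.2% of beta tubulin reads, against 55.3% to 69.3% in the other 3 MDA-MB-436 tables. In CPM, TUBB in that table differed from the MDA-MB-436 STING sgRNA table by -2.59 on the log2 scale. All 14 measured neighbours of TUBB on chromosome 6, from PRR3 to VARS2, were lower there by more than 2-fold, with a median log2 difference of -2.64, against -0.056 over 13000 genes. In SUM159PT the same pair of tables had a median log2 difference of -0.19 over these neighbours, and 0 of the 14 were lower by more than 2-fold, while TUBB itself differed by -1.05. Of all 13000 genes, 882 were lower by more than 2-fold in MDA-MB-436 and 2053 in SUM159PT. The low TUBB share was found in all 6 libraries of the MDA-MB-436 siRNA table, controls included, and its cause was not tested.

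**Figure D1:**
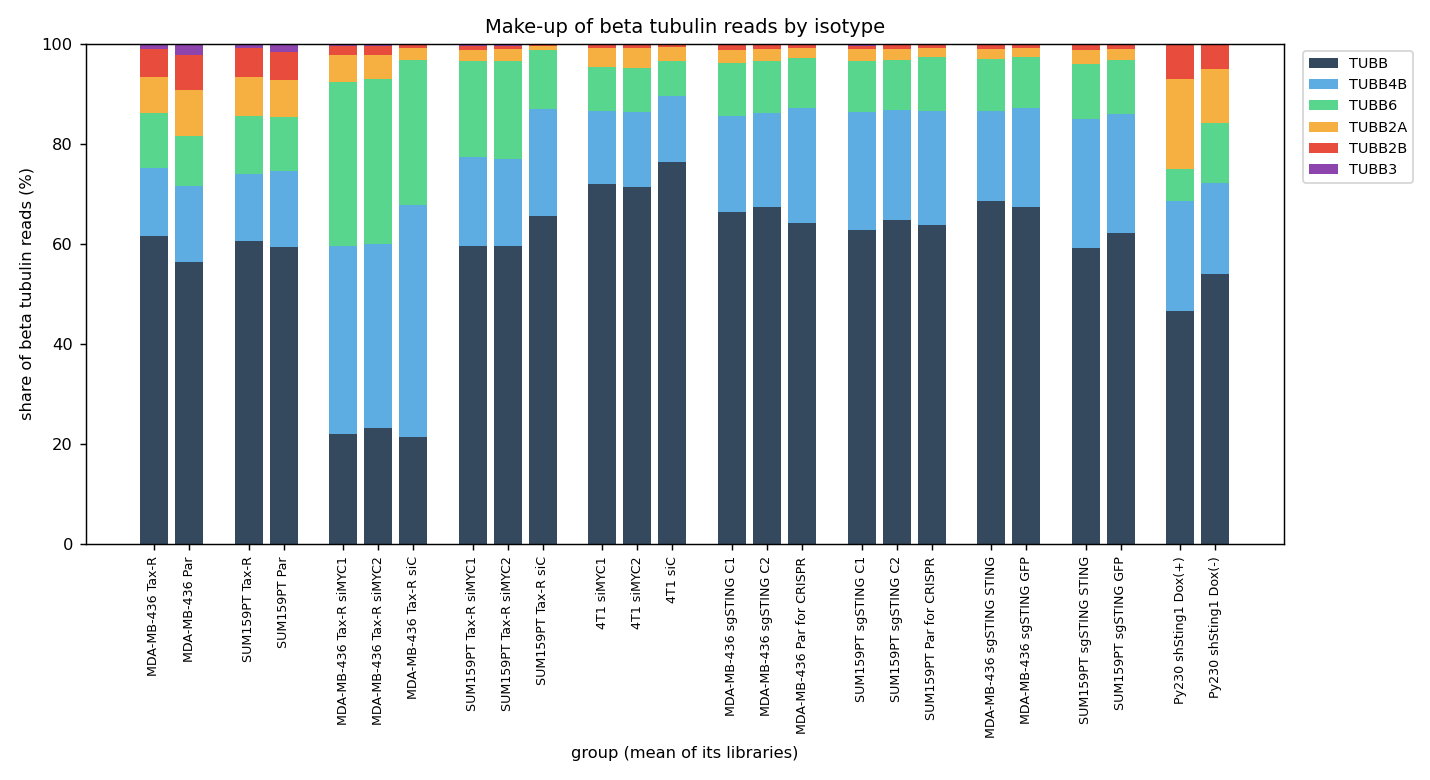
Share of each beta isotype in the summed normalized counts of the 6 beta isotypes, in percent, as stacked bars. Each bar is the mean of a group's 2 (human) or 3 (mouse) libraries. Within each cluster of bars the perturbed groups stand left of the group they are set against, and mouse Tubb5 is drawn as TUBB. TUBB is the largest part of each bar except in the MDA-MB-436 siRNA groups (21.3% in siC), and its share is lower with MYC siRNA in SUM159PT (59.6%, against 65.7%) and 4T1 (71.7%, against 76.4%) and with doxycycline in Py230 (46.6%, against 53.9%).

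In MDA-MB-436 Tax-R cells the 4 alpha isotypes, TUBB and TUBB6 were modestly higher and TUBB3 was lower. Of the 10 members, 6 rose and 1 fell against parental cells, where 27.7% of all genes tested rose and 26.9% fell. TUBB had 7396 and 7559 normalized counts in the Tax-R libraries, against 5937 and 5628 in the parental ones. TUBB6 had 1313 and 1324 in Tax-R, against 1005 and 1075 in parental cells. Both Tax-R libraries lay above both parental libraries for each gene, and the log2 fold changes were 0.37 ± 0.039 (SE) for TUBB and 0.34 ± 0.042 for TUBB6, with limma adjusted p-values of 1.17e-05 and 3.57e-05. TUBA1A had 12231 and 12507 in Tax-R, against 10858 and 10049.8 in parental cells. TUBA1C had 12116 and 12311, against 10256 and 9698, and TUBA1B 6211 and 6439, against 5449 and 5026. The groups of these 3 alpha isotypes did not overlap, as was so for 77.1% of all genes in this comparison, and their log2 fold changes were 0.24 ± 0.046, 0.29 ± 0.042 and 0.27 ± 0.044. TUBA4A rose as well (0.19 ± 0.040). The call of TUBA1B was lost under quantile normalization (adjusted p = 0.0588). In bulk RNA, fewer cells of a kind and less RNA per cell cannot be told apart.

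TUBB3, the class III isotype that is best known from neurons and is often studied in taxane-treated tumours, had 143 and 115 in the MDA-MB-436 Tax-R libraries, against 254 and 218 in the parental ones. Both Tax-R libraries were below both parental libraries, with a log2 fold change of -0.87 ± 0.12 (adjusted p = 7.54e-05). In its share of beta tubulin reads TUBB3 was 1.06% in Tax-R, against 2.30% in parental cells, while the share of TUBB was 61.6%, against 56.3%. These shares rest on 2 libraries a group, where the smallest exact two-sided permutation p is 0.333. The summed level of 10 neuronal markers moved with TUBB3: it was 93.4 to 110.1 in Tax-R, against 249 to 261 in parental cells, with 3 of the 10 at a table mean of 10 or more and ELAVL4 and NEFM without a read. Their part in the result was not tested. TUBB2A (874 and 892 in Tax-R, against 927 and 942), TUBB2B and TUBB4B did not pass the test. For the members the 2 MDA-MB-436 Tax-R libraries had a chi-square of 1.29. Over all genes they differed by less than sampling noise (chi-square of 0.855 per gene, against 1.02 to 2.73 in the 34 other replicate pairs). They were therefore also counted as 1 sample, which has no spread of its own and is assumed to vary like the parental pair, so that the fit is no independent check. It gave adjusted p-values of 3.41e-06 for TUBB3, 3.36e-04 for TUBB and 0.0317 for TUBA1A.

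In SUM159PT Tax-R cells all 10 members passed the test, 9 higher and TUBB3 lower, where 23.5% of all genes tested rose and 22.1% fell. TUBB6 had 1400.3 and 1400.0 in Tax-R, against 933 and 974 in parental cells, and TUBA1C had 11074 and 12011, against 8593 and 7587. TUBB2A had 876 and 955 in Tax-R, against 737 and 589.6 in parental cells. In each of these genes the Tax-R libraries lay above the parental ones, where 73.2% of all genes had groups that did not overlap, with log2 fold changes of 0.55 ± 0.041 (adjusted p = 4.70e-06), 0.51 ± 0.063 (adjusted p = 1.40e-04) and 0.47 ± 0.091 (adjusted p = 0.00226). TUBB had 6867 and 7614 in Tax-R, against 5424 and 5073 in parental cells, a log2 fold change of 0.46 ± 0.055. TUBA1A (0.41), TUBA1B (0.47), TUBB2B (0.51) and TUBB4B (0.23) rose as well, and of these TUBA1B (adjusted p = 0.0502), TUBB2B (adjusted p = 0.0693) and TUBB4B (adjusted p = 0.0909) lost their calls without parental replicate 2. TUBA4A rose by 0.12 on the log2 scale, a call that was lost in 8 of the alternatives, among them edgeR (adjusted p = 0.0556).

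TUBB3 had 114 and 99.997 in SUM159PT Tax-R, against 154 and 136 in parental cells. The groups did not overlap, and the log2 fold change was -0.44 ± 0.12 (adjusted p = 0.0160). The call was lost under quantile normalization (adjusted p = 0.0793), with DESeq2 (adjusted p = 0.290), and without parental replicate 1 (adjusted p = 0.148), parental replicate 2 (adjusted p = 0.0598) or Tax-R replicate 2 (adjusted p = 0.0768). The share of TUBB3 in beta tubulin reads was 0.899% ± 0.137 in Tax-R, against 1.64% ± 0.0571 in parental cells (SD, n = 2 each). The summed neuronal markers were 125 to 147 in SUM159PT Tax-R, against 111 to 115 in parental cells. The sum went the other way from TUBB3, but of 3 tested markers 1 rose and 1 fell. Summed epithelial markers of SUM159PT were at 1998 to 2045 in Tax-R, against 3079.9 to 3141 in parental cells, and of 3 tested 0 rose and 3 fell, with CDH1 at 0 or not analysed here. Summed fibroblast markers of SUM159PT were at 3284 to 3347 in Tax-R, against 2639 to 2654 in parental cells, and of 6 tested 1 rose and 3 fell. Summed epithelial markers of MDA-MB-436 were at 1947 to 2064 in Tax-R, against 2848 to 2887 in parental cells, and of 3 tested 1 rose and 2 fell. Summed fibroblast markers of MDA-MB-436 were at 3835 to 4025 in Tax-R, against 4769.7 to 4888 in parental cells, and of 5 tested 0 rose and 3 fell. The part of these lists in the Tax-R results was not tested. Normalized counts of the alpha isotypes summed to 30308 ± 1642 in SUM159PT Tax-R, against 22179 ± 1659 in parental cells, and those of the beta isotypes to 11940.3 ± 757, against 8849 ± 468 (SD, n = 2 each).

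**Figure D2:**
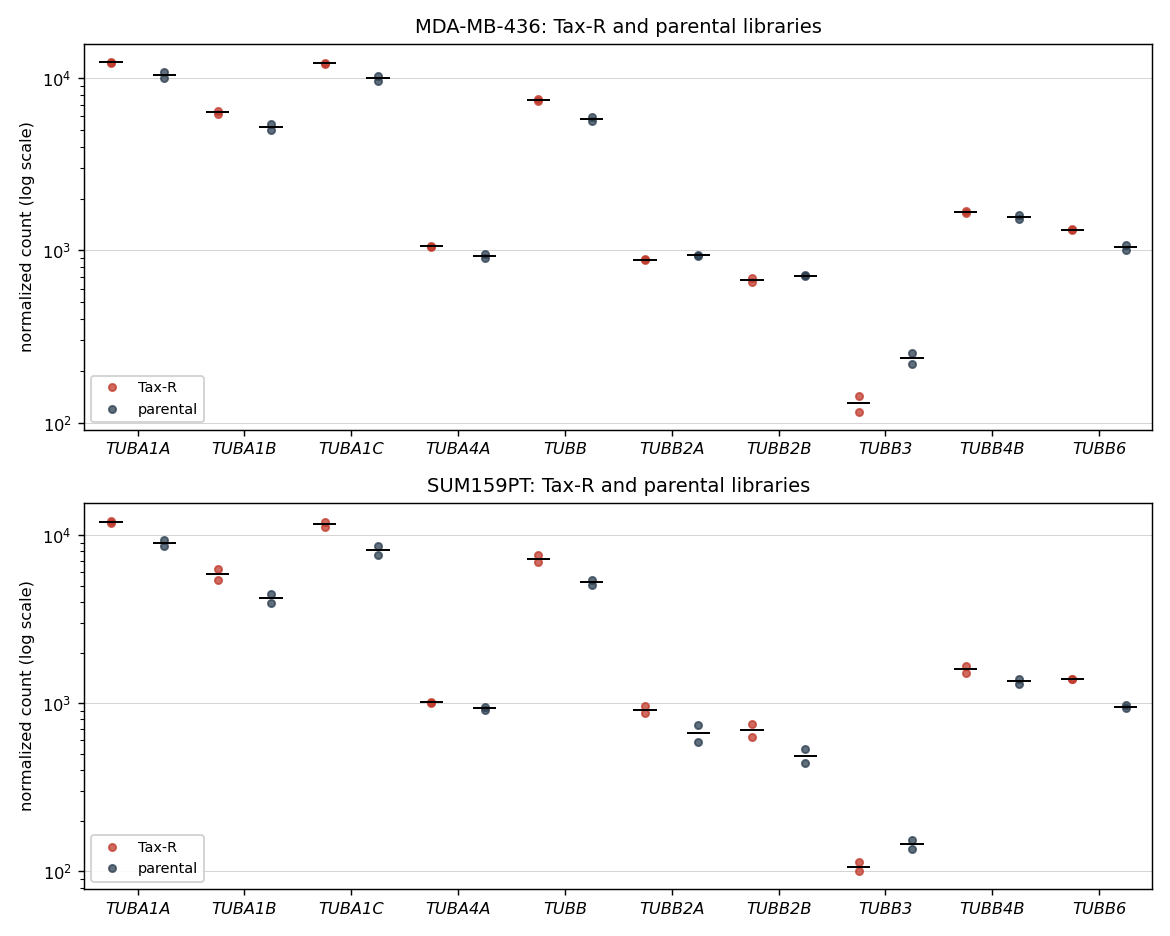
Normalized counts (log axis) of the 10 tubulin isotypes in Tax-R and parental libraries of MDA-MB-436 (top) and SUM159PT (bottom). Each point is a library, Tax-R left of parental, and each line is the mean of a group's 2 libraries. TUBB3 is the isotype for which the Tax-R points lie below the parental ones in both lines, and in SUM159PT its call was lost with DESeq2.

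With MYC siRNA the 2 human lines shared a pattern: TUBA1A, TUBB2A and TUBB2B were higher, and TUBA1B, TUBA1C and TUBB4B were lower. In SUM159PT Tax-R cells 4 of the 10 members rose and 5 fell, where 35% of all genes tested rose and 34.5% fell. TUBA1B had 3966 and 3948 with siMYC1 and 4014 and 3943 with siMYC2, against 11118 and 11213 with control siRNA. TUBB4B had 1656 and 1609 with siMYC1 and 1602 and 1606 with siMYC2, against 3098 and 3097. TUBB had 5566 and 5354 with siMYC1 and 5393 and 5562 with siMYC2, against 9512 and 9559.9. All 4 MYC siRNA libraries lay below both control libraries in each of these genes, and 73.9% of all genes had groups that did not overlap. The log2 fold changes were -1.49 ± 0.032 for TUBA1B (adjusted p = 9.81e-38), -0.94 ± 0.041 for TUBB4B (adjusted p = 1.84e-25) and -0.80 ± 0.032 for TUBB (adjusted p = 4.98e-27). TUBA1C fell to 2249 and 2192 with siMYC1 and 2181 and 2207 with siMYC2, against 3659 and 3958 with control siRNA, by 0.79 on the log2 scale. TUBA4A was called lower at -0.12 ± 0.053 (adjusted p = 0.0346), but its groups overlapped and DESeq2 did not call it (adjusted p = 0.168).

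In the same SUM159PT libraries TUBA1A had 2034 and 2031 with siMYC1 and 1976 and 1975 with siMYC2, against 1231 and 1253 with control siRNA. TUBB2A had 209 and 199 with siMYC1 and 206 and 234 with siMYC2, against 137 and 122. TUBB2B had 76.3 and 60.1 with siMYC1 and 67.6 and 69.0 with siMYC2, against 34.6 and 40.4. The MYC siRNA libraries lay above the control ones in these 3 genes, with log2 fold changes of 0.69 ± 0.042, 0.71 ± 0.097 and 0.85 ± 0.17. TUBB3 was at a low level but rose, to 33.4 and 36.4 with siMYC1 and 26.6 and 38.4 with siMYC2, against 17.3 and 16.6 with control siRNA, a log2 fold change of 0.94 ± 0.24 (adjusted p = 4.68e-04). The summed neuronal markers moved with it: they were at 40.99 to 44.1 with MYC siRNA, against 14.5 to 18.3 with control siRNA, with 2 of the 10 at a table mean of 10 or more and DCX, ELAVL4, STMN2, NEFL, NEFM and INA at 0 or not analysed here. The summed fibroblast markers were 25756 to 27590.1 with MYC siRNA, against 3644 to 4176, and all 5 tested rose. The part of either list in these results was not tested. TUBB6 (0.064 ± 0.046, adjusted p = 0.213) did not pass the test.

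In SUM159PT the alpha isotypes together had 9117 ± 73.6 normalized counts with siMYC1 and 9020.4 ± 50.7 with siMYC2, against 17187 ± 214 with control siRNA. The beta isotypes together had 9162 ± 281 and 9201 ± 91.3, against 14522 ± 109 (SD, n = 2 each). The share of TUBA1A in alpha tubulin reads was 22.3% ± 0.155 with siMYC1 and 21.9% ± 0.117 with siMYC2, against 7.23% ± 0.00180 with control siRNA (SD, n = 2 each), and that of TUBA1B was 43.4% ± 0.205 and 44.1% ± 0.309, against 65.0% ± 0.417. Among the beta isotypes the share of TUBB6 was 19.4% ± 0.550 over the 4 MYC siRNA libraries, against 11.7% ± 0.846 in the 2 control libraries, and that of TUBB was 59.6% ± 0.425, against 65.7% ± 0.727. The groups did not overlap for any of the 6 shares, but the smallest exact permutation p for 4 libraries against 2 is 0.133.

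In MDA-MB-436 Tax-R cells labelled MYC siRNA, 5 members rose and 3 fell, where 34% of all genes tested rose and 33.7% fell. TUBA1A had 2438 and 2453 with siMYC1 and 2392 and 2442 with siMYC2, against 765 and 782 with control siRNA. TUBB2A had 526 and 515 with siMYC1 and 447 and 458 with siMYC2, against 228 and 213. TUBB2B had 150.4 and 176 with siMYC1 and 149.8 and 181 with siMYC2, against 65.0 and 66.0. All MYC siRNA libraries were above both controls in these genes, where 72.3% of all genes had groups that did not overlap, with log2 fold changes of 1.65 ± 0.034 (adjusted p = 2.52e-25), 1.14 ± 0.063 (adjusted p = 2.53e-15) and 1.31 ± 0.11 (adjusted p = 4.10e-11). TUBA4A (0.44 ± 0.035), an alpha isotype whose gene does not encode the terminal tyrosine, and TUBB6 (0.098 ± 0.028) also rose. TUBA1B fell to 9636 and 9614 with siMYC1 and 9649.8 and 9531 with siMYC2, against 13532 and 12951 with control siRNA, by 0.46 on the log2 scale. TUBB4B fell to 3534 and 3571 with siMYC1 and 3462 and 3455 with siMYC2, against 4610.2 and 4666, by 0.40. TUBA1C fell by 0.28, and for these 3 genes no MYC siRNA library reached the level of a control library. The summed fibroblast markers were 6749 to 7624 with MYC siRNA, against 554 to 565 with control siRNA, and all 4 tested rose; their part in the result was not tested.

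TUBB did not pass the test in MDA-MB-436 (2073 and 2086 with siMYC1 and 2152 and 2173 with siMYC2, against 2157 and 2087, adjusted p = 0.982), in the table where its reads and those of its neighbours were low. TUBB3 (0.53 ± 0.24, adjusted p = 0.0511) had 28.6 to 48.8 with MYC siRNA, against 19.4 and 29.8 with control siRNA; its groups overlapped, and it passed with edgeR (adjusted p = 0.0406). The share of TUBB4B in beta tubulin reads was 37.2% ± 0.446 with MYC siRNA, against 46.5% ± 0.354 with control siRNA (SD, n = 4 and 2), and that of TUBB2A was 5.16% ± 0.400, against 2.21% ± 0.111. TUBA1A, TUBA1B and TUBA1C are near-identical in sequence, so the authors' counting could split their reads unevenly, and each is uncertain on its own. Summed, the 3 genes were lower with MYC siRNA in both lines, by 0.99 in SUM159PT (adjusted p = 1.64e-32) and 0.24 in MDA-MB-436 (adjusted p = 1.49e-13), the direction of TUBA1B and not of TUBA1A. TUBB2A and TUBB2B summed rose by 0.74 ± 0.086 in SUM159PT (adjusted p = 1.33e-10) and 1.18 ± 0.057 in MDA-MB-436 (adjusted p = 8.59e-17).

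**Figure D3:**
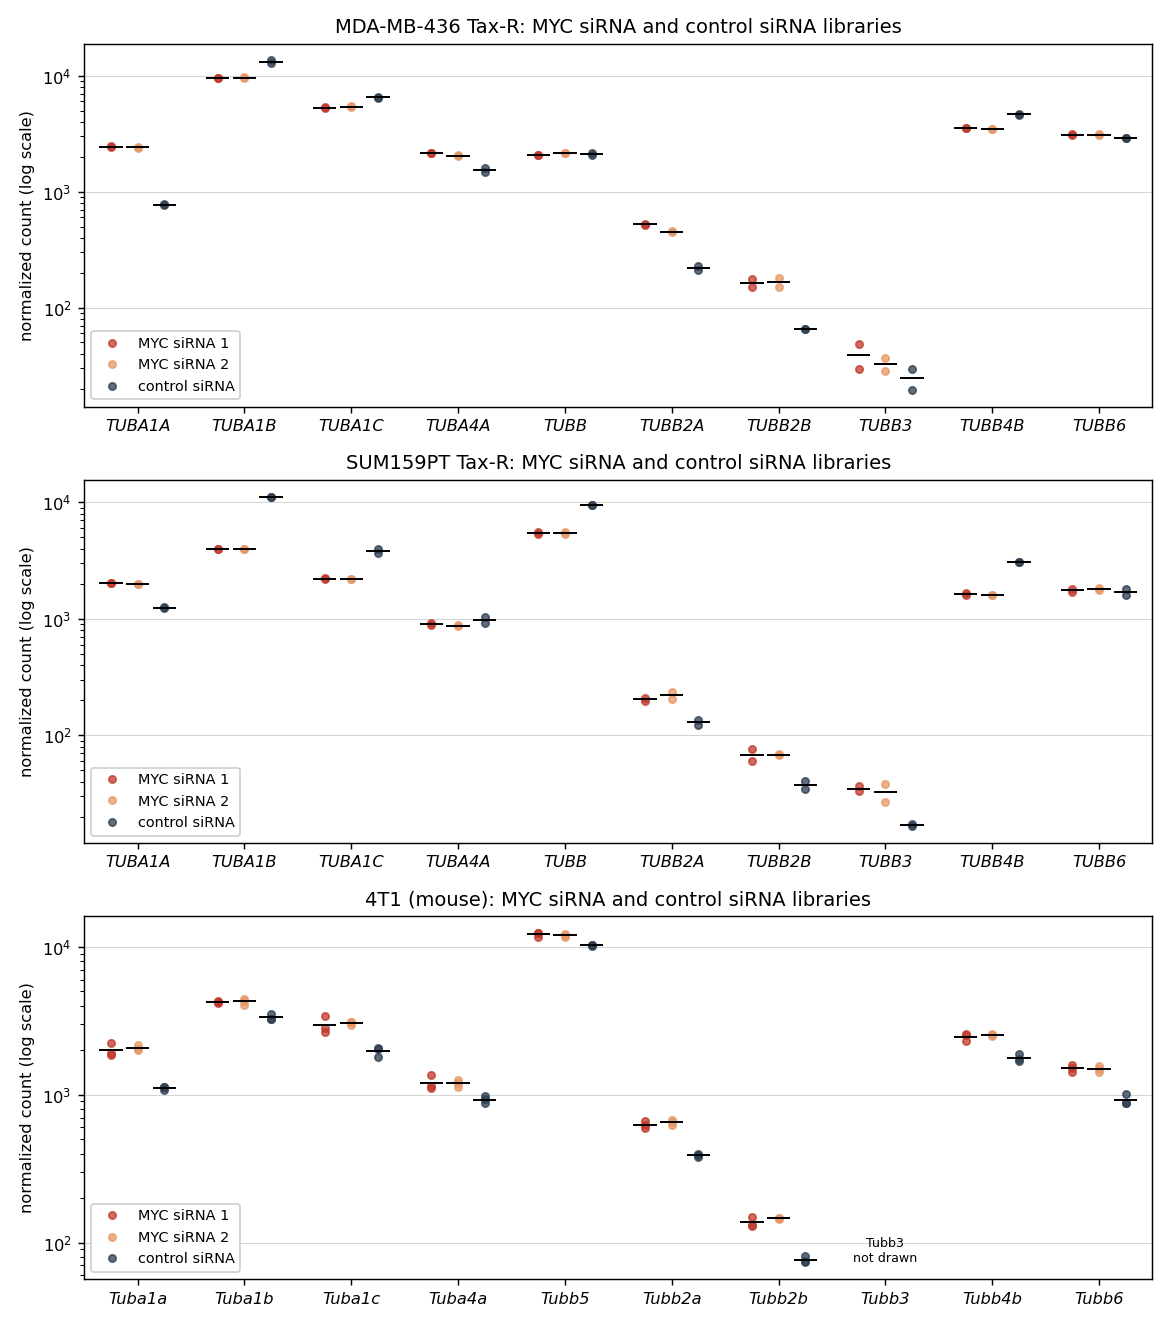
Normalized counts (log axis) of the tubulin isotypes with siMYC1, siMYC2 and control siRNA in MDA-MB-436 Tax-R, SUM159PT Tax-R and 4T1 cells. Each point is a library, the MYC siRNA groups stand left of their control, and lines are group means (2 libraries a group in the human lines, 3 in 4T1). The 2 siRNAs lie close together, and TUBA1B and TUBB4B are below their controls in both human lines and above them in 4T1.

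In 4T1 cells labelled MYC siRNA all 9 members tested rose, where 24.7% of all genes tested rose and 21.5% fell. Tuba1a had 2239.8, 1906 and 1850.2 with siMYC1 and 2027, 1995 and 2171 with siMYC2, against 1077, 1124 and 1119 with control siRNA. Tubb2b had 149, 132 and 129 with siMYC1 and 143, 148 and 147 with siMYC2, against 80.8, 74.9 and 73.3. Tubb6 had 1585, 1525 and 1415 with siMYC1 and 1415, 1552 and 1496 with siMYC2, against 1014, 876 and 882. No MYC siRNA library was as low as a control in any of the 9 genes, while 39.3% of all genes had groups that did not overlap. The log2 fold changes were 0.88 ± 0.096 for Tubb2b (adjusted p = 3.48e-08), 0.87 ± 0.051 for Tuba1a (adjusted p = 3.62e-13) and 0.70 ± 0.051 for Tubb6 (adjusted p = 2.67e-11). Tuba1b had 4175, 4274 and 4211 with siMYC1 and 4069, 4454 and 4331 with siMYC2, against 3530.2, 3270.2 and 3271 with control siRNA, a log2 fold change of 0.34 ± 0.040. Tubb4b had 2565, 2518 and 2324 with siMYC1 and 2486, 2519.9 and 2565 with siMYC2, against 1882, 1688 and 1736, a log2 fold change of 0.50 ± 0.044. Tubb2a (0.71), Tuba1c (0.61), Tuba4a (0.37) and Tubb5 (0.24) rose as well, and the call of Tubb5 was lost under quantile normalization (adjusted p = 0.289). Tubb3 lay between 0 and 2.15 normalized counts and was not tested. Summed epithelial markers of 4T1 were at 21116 to 22222 with MYC siRNA, against 16713 to 17832 with control siRNA, and of 5 tested 4 rose and 0 fell. Their part in the result was not tested.

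In 4T1 the share of Tubb5 in beta tubulin reads was 71.7% ± 0.951 with MYC siRNA (SD, n = 6), against 76.4% ± 1.009 with control siRNA (SD, n = 3). The share of Tubb6 was 8.87% ± 0.324, against 6.89% ± 0.473, that of Tubb2a 3.79% ± 0.148, against 2.91% ± 0.00668, and that of Tubb2b 0.837% ± 0.0466, against 0.570% ± 0.0238. For these 4 isotypes the groups did not overlap, with an exact two-sided permutation p of 0.0238, the smallest this design can give, and 0.0357 after adjustment over the 6 shares. Tubb4b had 14.8% ± 0.563, against 13.2% ± 0.526, with overlapping groups (exact permutation p = 0.0476, adjusted 0.0571). Between siMYC1 and siMYC2, 0 of the members were called by limma in SUM159PT (0% of all genes), MDA-MB-436 (0.195%) and 4T1 (0%). At an unadjusted p below 0.05 limma found 1 member, TUBB2A in MDA-MB-436, and edgeR and DESeq2 called 0 in each of the 3 lines.

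With STING sgRNA, TUBA1A, TUBA1C, TUBB2A and TUBB2B rose in both human lines. In MDA-MB-436, 7 members rose and 1 fell, where 24.8% of all genes tested rose and 23% fell. TUBB2B had 193 and 213 in C1 and 156 and 178 in C2, against 103 and 96.9 in mock-treated cells. TUBB2A had 482 and 533 in C1 and 480.0 and 421 in C2, against 348 and 368. TUBA1A had 845 and 766 in C1 and 784 and 727 in C2, against 605 and 589.8. All sgRNA libraries lay above both mock libraries, where 57.3% of all genes had groups that did not overlap, with log2 fold changes of 0.87 ± 0.10 (adjusted p = 6.52e-08), 0.41 ± 0.069 (adjusted p = 1.28e-05) and 0.38 ± 0.056 (adjusted p = 1.74e-06). TUBB rose less, to 13447 and 12841 in C1 and 12802 and 12848 in C2, against 11873 and 11767 in mock-treated cells, a log2 fold change of 0.14 ± 0.025. TUBB4B was the member that fell, to 3916 and 3701 in C1 and 3677 and 3523 in C2, against 4155 and 4261 (log2 fold change -0.18 ± 0.033), and its share of beta tubulin reads was 19.1% ± 0.298, against 22.9% ± 0.321 (SD, n = 4 and 2). TUBA4A (0.26), TUBA1C (0.17) and TUBB6 (0.13) rose, the last not with DESeq2 (adjusted p = 0.0652). TUBA1A, TUBA1B and TUBA1C summed did not pass (0.055, adjusted p = 0.0511).

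In SUM159PT with STING sgRNA 4 members rose and 6 did not pass, where 19.3% of all genes tested rose and 19.8% fell. TUBA1A had 1386 and 1421 in C1 and 1394 and 1419 in C2, against 834 and 751 in mock-treated cells. TUBB2B had 155 and 183 in C1 and 187 and 176 in C2, against 108 and 115. TUBB2A had 514 and 531 in C1 and 485 and 472 in C2, against 377 and 380.1. The sgRNA libraries were all above the mock ones, where 43.8% of all genes had groups that did not overlap, with log2 fold changes of 0.83 ± 0.048 (adjusted p = 1.79e-18), 0.65 ± 0.11 (adjusted p = 3.07e-06) and 0.40 ± 0.063 (adjusted p = 1.40e-06). TUBA1C rose by 0.21. Of the 6 that did not pass, TUBA1B (0.037), TUBB (0.040) and TUBB4B (0.042) were within 0.05 of no change on average over C1 and C2. Taken alone, C1 had a called rise of TUBB4B (0.13, adjusted p = 0.00958) and C2 did not (-0.041, adjusted p = 0.383), and C2 had a called fall of TUBB6 (-0.12, adjusted p = 0.0268). Between C2 and C1 only TUBB4B was called in SUM159PT, where 19.9% of all genes were: it had 4736 and 4827 in C2, against 5313 and 5421 in C1, a log2 fold change of -0.17 (adjusted p = 0.001). In MDA-MB-436 limma called 0 members between C2 and C1 (0.797% of all genes), with 3 at an unadjusted p below 0.05 and 0 called by edgeR or DESeq2. Summed fibroblast markers of MDA-MB-436 were at 3501 to 4102 with STING sgRNA, against 4828 to 4869 in mock-treated cells, and of 4 tested 2 rose and 2 fell, with DCN and LUM at 0 or not analysed here. Summed fibroblast markers of SUM159PT were at 376 to 406 with STING sgRNA, against 1231 to 1301 in mock-treated cells, and of 5 tested 1 rose and 2 fell, with LUM at 0 or not analysed here. The part of these markers in the results was not tested.

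Among sgSTING cells TUBA1A was lower with the STING ORF in both lines. In MDA-MB-436, 2 members fell and 8 did not pass, where 9.2% of all genes tested rose and 11.9% fell. TUBB4B had 3209 and 3039.7 with the STING ORF, against 3914 and 3732 with the GFP ORF. TUBA1A had 335 and 292 with the STING ORF, against 381 and 430.2 with the GFP ORF. Neither gene's groups overlapped, as was so for 61.0% of all genes, and the log2 fold changes were -0.29 ± 0.068 (adjusted p = 0.00227) and -0.37 ± 0.10 (adjusted p = 0.0102). DESeq2 did not call TUBA1A (adjusted p = 0.132), which also lost its call without GFP ORF replicate 2 (adjusted p = 0.0775), and both calls were lost without STING ORF replicate 2 (adjusted p = 0.133 for TUBB4B and 0.214 for TUBA1A). TUBB3 had 21.2 and 21.4 with the STING ORF, against 34.9 and 36.2 with the GFP ORF, a log2 difference of -0.71 ± 0.27 that did not pass (adjusted p = 0.0579). The summed neuronal markers were 52.6 to 53.5, against 22.03 to 25.8, the other way from TUBB3. Of these 10 markers only 1 had a table mean of 10 or more.

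In SUM159PT, 3 members rose and TUBA1A fell with the STING ORF, where 13.2% of all genes tested rose and 12.8% fell. TUBA1A had 389 and 362 with the STING ORF, against 742 and 763 with the GFP ORF. Both STING ORF libraries were below both GFP ORF libraries, where 63.0% of all genes had groups that did not overlap, and the log2 fold change was -1.002 ± 0.095 (adjusted p = 7.73e-09). The 3 alpha genes summed differed by -0.032 (adjusted p = 0.624), and TUBA1A made up 1.81% ± 0.0480 of alpha tubulin reads with the STING ORF, against 3.61% ± 0.151 with the GFP ORF (SD, n = 2 each). TUBB2A had 696 and 547 with the STING ORF, against 496 and 442 with the GFP ORF, a log2 fold change of 0.40 ± 0.11 (adjusted p = 0.00680). TUBB2B (0.43 ± 0.13) and TUBA4A (0.27 ± 0.074) rose likewise. These 3 calls were lost without GFP ORF replicate 2 (adjusted p = 0.208 for TUBB2A, 0.254 for TUBB2B and 0.237 for TUBA4A), and those of TUBB2B (adjusted p = 0.0857) and TUBA4A (adjusted p = 0.174) also without GFP ORF replicate 1.

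In Py230 cells with the Sting1 shRNA, doxycycline changed the make-up of beta tubulin: Tubb2a, Tubb2b and Tubb4b rose and Tubb6 fell. Of the 9 members tested, 6 rose and 2 fell, where 32.8% of all genes tested rose and 35.1% fell. Tubb2a had 1503, 1408 and 1542 in doxycycline libraries, against 783, 640.3 and 673 in vehicle libraries. Tubb4b had 1857, 1788 and 1809 with doxycycline, against 1311, 1068 and 1189 with vehicle. Tubb6 had 527, 515 and 530.5 with doxycycline, against 799.6, 783 and 757 with vehicle. In none of these 3 genes did the groups overlap, as was so for 70.8% of all genes, and the log2 fold changes were 1.09 ± 0.061 (adjusted p = 5.54e-14), 0.62 ± 0.056 (adjusted p = 6.01e-10) and -0.57 ± 0.055 (adjusted p = 1.47e-09). Tubb2b had 596, 542 and 572 with doxycycline, against 340.1, 307 and 322 with vehicle, and Tuba1a had 1361, 1297 and 1290.1, against 838, 726 and 800.4. Both rose without overlap, by 0.82 ± 0.066 and 0.74 ± 0.054. Tuba1b fell by 0.13 on the log2 scale (adjusted p = 0.0156), but the 3 alpha genes summed were higher (0.16 ± 0.044, adjusted p = 0.00228), and DESeq2 did not call Tuba1b (adjusted p = 0.0510). Tubb5 (0.13, adjusted p = 0.0182) and Tuba4a (0.16, adjusted p = 0.0405) passed with overlapping groups, and both lost their calls when single libraries were left out (Tubb5 in 4 of 6 cases, Tuba4a in 3 of 6). Tubb3 lay between 0 and 2.21 and was not tested. Summed epithelial markers of Py230 were at 15575 to 15915 with doxycycline, against 11447 to 12269 with vehicle, and of 5 tested 2 rose and 3 fell. Their part in the result was not tested.

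The share of Tubb2a in beta tubulin reads of Py230 was 18.03% ± 0.567 with doxycycline, against 10.7% ± 0.292 with vehicle (SD, n = 3 each). The share of Tubb6 was 6.37% ± 0.0352, against 12.04% ± 0.752, that of Tubb5 46.6% ± 1.02, against 53.9% ± 0.662, and that of Tubb4b 22.1% ± 0.487, against 18.3% ± 0.764. None of these groups overlapped, but 3 libraries against 3 cannot give an exact permutation p below 0.1. Doxycycline without the shRNA was not analysed here, so its own effect and that of the shRNA cannot be told apart.

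Across the 10 comparisons, 98 member tests gave 53 rises, 16 falls and 29 that did not pass. Over the same comparisons 24.5% of the tests of all genes were rises and 24.2% falls, and the share called in either direction ran from 21.1% to 69.5%. TUBB2A and TUBB2B were each higher in 8 comparisons and called lower in none. TUBA1A passed in all 10, higher in 8 and lower with the STING ORF in both lines. TUBA1B and TUBB4B were the most divided, with 3 rises and 3 falls for TUBA1B and 3 rises and 4 falls for TUBB4B. TUBB3 passed in 3 of 8, higher with MYC siRNA in SUM159PT and lower in Tax-R cells of both lines. Its call in SUM159PT Tax-R cells was lost with DESeq2 and under quantile normalization. No library enters more than 1 of the 10 comparisons.

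**Figure D4:**
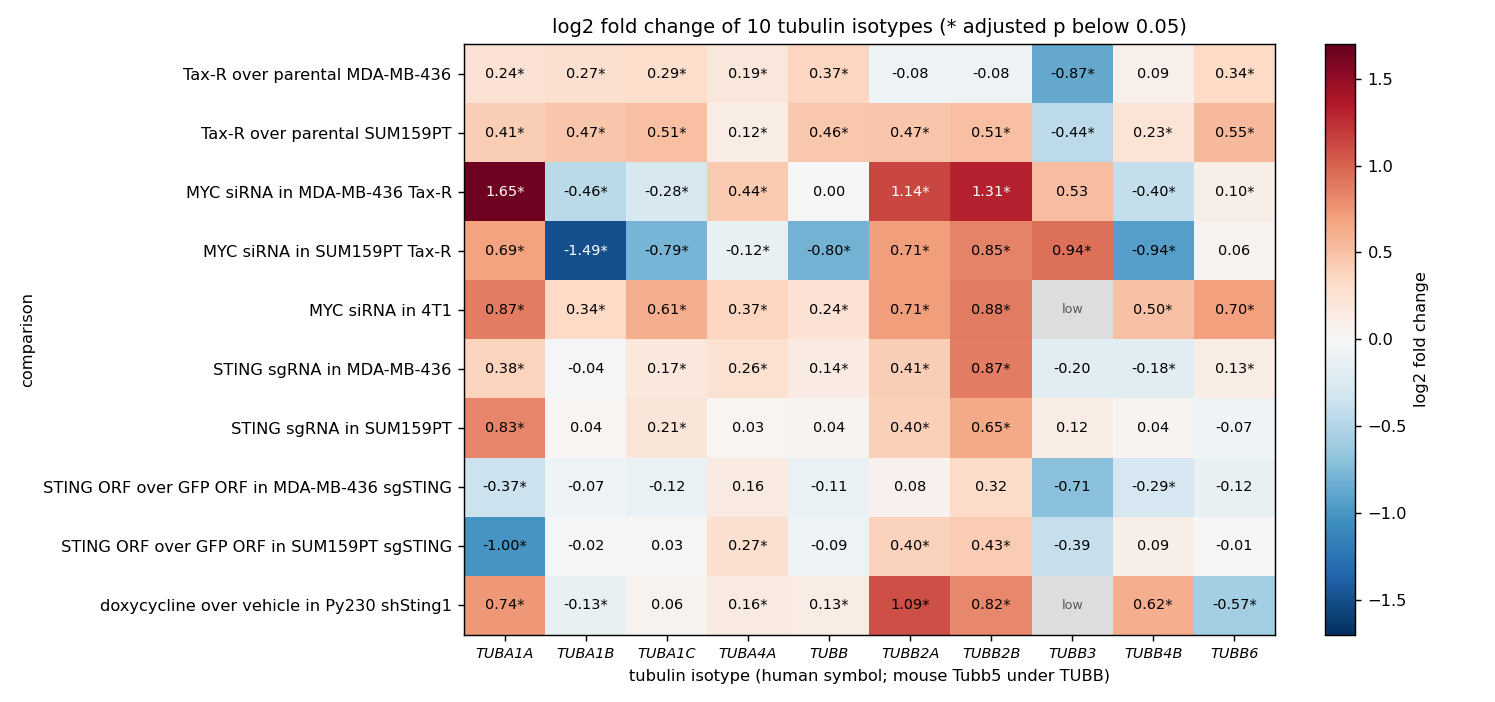
Log2 fold change of each tubulin isotype (columns) in each comparison (rows), perturbed over control. Red is higher and blue lower in the perturbed group, an asterisk marks a limma adjusted p below 0.05, and "low" marks Tubb3, which failed the filter in mouse. The columns of TUBB2A and TUBB2B hold no called fall, and those of TUBA1B and TUBB4B hold calls of both signs.

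Over the 40 human libraries, with values centred within each table, TUBA1B varied with TUBA1C (Pearson r = 0.92), TUBB (0.90) and TUBB4B (0.94), and TUBB2A varied with TUBB2B (0.92) and TUBA1A (0.73). TUBA1B and TUBB3 varied in opposite directions (-0.60). The genes most like TUBA1B out of 12382 were POLE (0.976), MCM7 (0.966) and TYMS (0.963), which act in DNA replication and nucleotide synthesis. The closest to TUBB4B was CDC20 (0.961), an activator of the mitotic ubiquitin ligase, and the closest to TUBB was TCF19 (0.963). TUBB2B was closest to the integrin subunit ITGB1 (0.923), TUBA1A to CKAP4 (0.949) and TUBB6 to IFT22 (0.861), an intraflagellar transport gene. TUBB2A was closest to DSEL (0.888), TUBA1C to FABP5 (0.912), TUBA4A to CAPZB (0.818) and TUBB3 to SLC4A11 (0.822). These correlations describe libraries that share tables and treatments and carry no p.

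The subunits of CCT, the chaperonin that folds tubulin, fell with MYC siRNA in all 3 lines. All 8 fell in SUM159PT (median log2 fold change -0.95, against -0.0054 over all genes), MDA-MB-436 (-0.64, against -0.0087) and 4T1 (-0.21, against -0.0048). CCT5 was the subunit with the largest fall in both human lines, at -2.04 ± 0.043 in SUM159PT (adjusted p = 2.07e-38) and -1.18 ± 0.024 in MDA-MB-436 (adjusted p = 2.54e-25). In 4T1 it was Cct4, at -0.26 ± 0.038 (adjusted p = 3.72e-06), so CCT subunits fell in the line where all 9 tested tubulins rose. Of all genes, 34.5% fell in SUM159PT, 33.7% in MDA-MB-436 and 21.5% in 4T1. In Py230 with doxycycline 7 of the 8 subunits fell as well, where 35.1% of all genes fell. In Tax-R cells 1 of 8 subunits rose in each line and the others did not pass, where 27.7% of all genes rose in MDA-MB-436 and 23.5% in SUM159PT. Of 14 folding cofactors, prefoldin subunits and autoregulation genes, 9 fell and 2 rose with MYC siRNA in SUM159PT (34.5% and 35% of all genes) and 7 fell and 1 rose in MDA-MB-436 (33.7% and 34%). The prefoldin subunit VBP1 led these falls, at -2.08 ± 0.079 and -1.17 ± 0.064. In Tax-R cells the same 14 genes had 8 rises in SUM159PT, where 23.5% of all genes rose, and 5 rises and 1 fall in MDA-MB-436, where 27.7% rose and 26.9% fell, the largest being TBCEL in MDA-MB-436 at 0.51 ± 0.043 (adjusted p = 2.04e-06).

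Of 18 tubulin-modifying enzymes, 9 rose and 1 fell in MDA-MB-436 Tax-R cells and 9 rose and 2 fell in SUM159PT Tax-R cells, where 27.7% and 23.5% of all genes rose and 26.9% and 22.1% fell. AGBL2, a carboxypeptidase of the deglutamylase family, was among the rises in both lines, at 2.39 ± 0.22 (adjusted p = 4.24e-06) and 1.21 ± 0.35 (adjusted p = 0.0194). VASH1, which removes the terminal tyrosine of alpha tubulin, fell in SUM159PT Tax-R cells (-1.32 ± 0.16, adjusted p = 1.11e-04). With MYC siRNA VASH1 rose in both human lines, at 2.03 ± 0.17 in SUM159PT and 1.88 ± 0.15 in MDA-MB-436, and TTLL12, a tubulin tyrosine ligase-like protein, fell (-0.86 ± 0.053 and -1.35 ± 0.040). With MYC siRNA the list gave 5 rises and 5 falls of 18 in SUM159PT, 6 rises and 4 falls in MDA-MB-436, and 4 rises and 3 falls of 17 in 4T1, where of all genes 35%, 34% and 24.7% rose and 34.5%, 33.7% and 21.5% fell.

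Of 10 genes of the gamma-tubulin ring complex, which nucleates microtubules, 7 fell and 1 rose with MYC siRNA in SUM159PT (34.5% and 35% of all genes) and 6 fell and 2 rose in MDA-MB-436 (33.7% and 34%). MZT1, a small subunit of the complex, had the largest fall in both lines, at -2.46 ± 0.14 and -1.24 ± 0.087. Of 8 tested in 4T1, 1 passed, Tubgcp6 at 0.16 ± 0.059 (adjusted p = 0.0248), where 24.7% of all genes rose and 21.5% fell. In Tax-R cells 5 rose and 2 fell in MDA-MB-436 (27.7% and 26.9% of all genes), and 4 rose and 2 fell in SUM159PT (23.5% and 22.1%). Of the other tubulins, delta-tubulin TUBD1 fell with MYC siRNA in SUM159PT (-1.19 ± 0.20), MDA-MB-436 (-0.91 ± 0.17) and 4T1 (-0.45 ± 0.12), while gamma-tubulin TUBG2 rose in both human lines (1.05 ± 0.068 and 0.87 ± 0.091). In SUM159PT Tax-R cells TUBB4A rose (0.72 ± 0.25) and TUBB1, the beta isotype of platelets, fell (-1.09 ± 0.24), and in MDA-MB-436 Tax-R cells TUBAL3 fell (-0.77 ± 0.12).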

How the data were processed

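RNA-seq signal was deposited by the authors as 10 tables of normalized counts, each gene's reads divided by 1 factor per library. HISAT2, featureCounts, StringTie and DESeq2 are named in the submitters' processing notes; no build or annotation is stated there. Every value was a whole multiple of the value of 1 read (tolerance 0.05, 100% of values), which gave back the reads for edgeR 4.0.16 and DESeq2 1.42.0 as alternatives. Each table was fitted alone with limma 3.58.1 (trend, R 4.3.3) on log2(value + 1), which understates changes of low genes, over genes averaging 10 or more in the table. Tests were two-sided, with Benjamini-Hochberg adjustment over all genes tested and calls at an adjusted p below 0.05. The fit was also run on simulated reads with the same dispersion for every gene, which is no check of the calls made here. For siRNA and sgRNA the mean of both reagents was set against the control. Shares of beta isotypes were compared over libraries by exact two-sided permutation. Per-length levels used human transcript lengths, so mouse genes were not ranked. Named genes were all members, the called gene with the highest and lowest change of each pathway list in the Tax-R and MYC siRNA comparisons, and the closest correlates. The members and lists were chosen with earlier results of these data known.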

Additional observations from a re-analysis of the deposited data

Results flagged for a closer look

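The direction of 4 isotypes with MYC siRNA was not the same in all lines. TUBA1B had a log2 fold change of -0.46 in MDA-MB-436 Tax-R and -1.49 in SUM159PT Tax-R cells, and 0.34 in 4T1 cells. TUBA1C had -0.28 in MDA-MB-436, -0.79 in SUM159PT and 0.61 in 4T1. TUBB4B had -0.40 in MDA-MB-436, -0.94 in SUM159PT and 0.50 in 4T1. TUBB had -0.80 in SUM159PT, and Tubb5 had 0.24 in 4T1. The flagging rule itself asked for groups that do not overlap and for calls in opposite directions, so the lack of overlap is no added support. Of all genes, 72.3% had groups that did not overlap in MDA-MB-436, 73.9% in SUM159PT and 39.3% in 4T1. The difference between lines was not tested, since the tables were normalized separately and belong to different species. MYC itself had -0.87 in SUM159PT, -0.091 in MDA-MB-436 and -0.093 in 4T1.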

How the results depend on the processing

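Most member calls kept their direction and side of the threshold under a pseudocount of 4, no filter, quantile normalization, edgeR, DESeq2, each reagent alone and each library left out. With the STING ORF in MDA-MB-436 the 2 called members became 0 with no filter, 1 with DESeq2, 1 with near-identical copies summed, and 0 to 3 with single libraries left out. In SUM159PT the 4 called with the STING ORF became 1 with no filter and 1 to 6 with single libraries left out. The 10 called in SUM159PT Tax-R cells became 6 to 9, with 6 without parental replicate 2. Between the STING sgRNA groups of SUM159PT the 1 call became 0 with no filter and 2 with edgeR. Summing TUBA1A, TUBA1B and TUBA1C reversed TUBA1A with MYC siRNA (-0.99 in SUM159PT, -0.24 in MDA-MB-436) and Tuba1b in Py230 (0.16), by construction, since the sum also holds the other genes' reads. In 4T1, leaving out single libraries gave share differences of -5.29 to -4.38 points for Tubb5, 0.839 to 0.929 for Tubb2a, 0.255 to 0.283 for Tubb2b, 1.43 to 1.89 for Tubb4b and 1.80 to 2.24 for Tubb6. Over all share tests, leaving out single libraries lost a call in 32 cases and added 1. With fewer libraries the smallest permutation p possible is higher. Replicate numbers did not pair the libraries (correlations of -0.0913 to 0.11 over 44 pairs), and with the replicate block the MDA-MB-436 STING ORF comparison had 4 calls. In groups of 2 libraries both replicates give the same correlation, so not all 44 values are separate checks. Counting the Tax-R pair of MDA-MB-436 as 1 sample was chosen after seeing the data. With 1 sample in that arm, that fit is no check of the result. Where causes are not named, they were not tested, and isotypes near the filter, TUBB3 above all, are limited by depth.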
